A study of Mus musculus with 6 samples.

Results

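The genes described here encode the proteasome, its immunoproteasome form, its regulatory particles and activators, and the chaperones that assemble them. They were chosen by name: genes whose symbol starts with Psma, Psmb, Psmc, Psmd, Psme, Psmf or Psmg, without names holding "-ps", and with a mean of at least 2 CPM (raw counts scaled to the size of the library) over the 6 libraries. Of the 54232 genes in the table, 50 matched the name rule, and 48 of these passed the level. They comprised 7 alpha ring genes, 7 constitutive beta ring genes, 3 immunoproteasome beta genes, 6 ATPases and 11 non-ATPase subunits of the 19S regulatory particle, 3 chaperones of 19S assembly, 5 activator genes, 1 inhibitor and 4 chaperones of 20S assembly. The remaining gene, Psmc3ip, encodes a recombination factor that shares the prefix and is not a proteasome subunit, so 47 of the 48 are counted here with the machinery. One of these, the activator gene Psme2b, is a single-exon gene that matches Psme2 at 99.4%, and its own function was not tested. Near the threshold, Psmc3ip had a mean of 2.25 CPM and Psmg3 2.50 CPM. The 2 excluded genes were Psma8, an alpha subunit of the testis, at 0.194 CPM, and Psmb11, the catalytic subunit of the thymoproteasome, at 0.00741 CPM.

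Libraries were made from total RNA of GFP+ Treg cells of the spleen, the regulatory branch of CD4 T cells that restrains immune responses. Knockout (KO) mice carried a conventional knockout of BAF60b, a subunit of the SWI/SNF chromatin remodelling complex encoded by Smarcd2, so that the gene was targeted in every cell of the animal and not in Treg cells alone. Wild-type (WT) mice were the comparison, with 3 libraries of each genotype. The GFP signal was the mark of Treg cells in both genotypes, and the allele carrying GFP, the strain, the age and the sex are not given in the labels. The labels number the libraries without saying that each is a mouse of its own, so the p-values speak only of library-to-library spread. Each library had its own mix of Xist and Y-linked levels (given below), so they were not repeats of one RNA sample. How much of the spread is technical was not tested.

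The 26S proteasome degrades proteins tagged with ubiquitin. Its barrel, the 20S core, stacks rings of alpha subunits around rings of beta subunits, and catalytic beta subunits (Psmb5, Psmb6 and Psmb7) do the cutting, while the 19S particle binds ubiquitin, removes it and threads the substrate in. In lymphocytes, and in other cells exposed to interferon-gamma, Psmb8 is built in instead of Psmb5, Psmb9 instead of Psmb6 and Psmb10 instead of Psmb7, which gives the immunoproteasome and favours peptides that MHC class I can present. Psme1 and Psme2 form the activator PA28, which interferon-gamma also induces.

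Totals lay between 18167053 and 22502804 reads per library, and 0.457% to 0.474% of all reads fell on the 48 genes (0.458%, 0.462% and 0.460% in KO 1 to 3; 0.474%, 0.457% and 0.467% in WT 1 to 3). Smarcd2 was at 58.1, 57.5 and 59.0 CPM in KO libraries, against 204, 199 and 192 CPM in WT libraries, a difference of -1.77 on the log2 scale (SE 0.05; edgeR's quasi-likelihood test, adjusted p = 6.77e-08). The targeted gene thus went with the labels, although reads on it remained. Foxp3, the defining factor of Treg cells, had 583 to 612 CPM in KO and 542 to 562 CPM in WT libraries, and 9 T and Treg cell markers summed to 5532 to 5969 CPM in KO and 5425 to 5678 CPM in WT. Markers of other cells were low: B cell markers summed to 8.49 to 11.2 CPM in KO and 14.1 to 17.5 CPM in WT, dendritic cell markers to 2.84 to 5.37 CPM in KO and 1.996 to 2.38 CPM in WT, and macrophage and monocyte markers to 15.6 to 91.0 CPM in KO and 26.1 to 32.4 CPM in WT. The sex-linked transcripts were uneven. Y-linked sums were 301, 0 and 450 CPM in KO 1 to 3, and 0, 143 and 242 CPM in WT 1 to 3. Xist was 87.6, 441 and 0 CPM in KO 1 to 3, and 455, 254 and 128 CPM in WT 1 to 3. Both kinds were thus present in KO 1, WT 2 and WT 3. Whether these 3 libraries hold cells of more than 1 animal is not stated in the labels, so a library may not stand for a single mouse.

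Promoter windows from RefSeq (GRCm38.p6, 250 bases before to 50 after each start) were found for 41 of the 48 genes, and 4 are shown because their genes come up in the comparisons that follow. Capitals mark the motif named beside each gene, and all are written 5′ to 3′ on the gene's strand. Psmb8 (chr17:34197945-34198244, + strand) is the interferon-inducible subunit with the widest spread, and its capitals mark a GAS element, TTCNNNGAA, the form of site that STAT factors bind, starting at base -97 from the start. Psmb5 (chr14:54617946-54618245, - strand) is its constitutive counterpart, with the antioxidant element core TGACNNNGC at base -47. Psme1 (chr14:55578244-55578543, + strand) had the highest level per length of the set, with the interferon-stimulated response element (ISRE) core GAAANNGAA on the opposite strand from base 11. The windows of Psmb8 and Psme1 lie wholly within the annotated bounds of these genes in the deposited counts (chr17:34197721-34201454 and chr14:55578123-55581529). Their RefSeq starts, from which bases are numbered, thus lie inside the annotated genes. Psmd4 (chr3:95042565-95042864, - strand) had the smallest adjusted p, with the ETS core CCGGAAG at base -125.
Psmb8: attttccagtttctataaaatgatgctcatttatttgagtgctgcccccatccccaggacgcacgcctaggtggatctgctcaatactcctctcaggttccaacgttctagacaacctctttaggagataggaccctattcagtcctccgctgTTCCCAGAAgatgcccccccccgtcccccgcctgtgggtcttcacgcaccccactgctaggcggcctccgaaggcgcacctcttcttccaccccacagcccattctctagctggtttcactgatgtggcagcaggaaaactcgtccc
Psmb5: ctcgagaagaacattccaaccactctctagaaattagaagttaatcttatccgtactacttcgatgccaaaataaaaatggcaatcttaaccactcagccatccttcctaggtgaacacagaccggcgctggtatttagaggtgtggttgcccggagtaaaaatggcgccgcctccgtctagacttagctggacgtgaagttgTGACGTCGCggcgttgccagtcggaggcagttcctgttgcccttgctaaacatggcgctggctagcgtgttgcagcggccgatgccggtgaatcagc
Psme1: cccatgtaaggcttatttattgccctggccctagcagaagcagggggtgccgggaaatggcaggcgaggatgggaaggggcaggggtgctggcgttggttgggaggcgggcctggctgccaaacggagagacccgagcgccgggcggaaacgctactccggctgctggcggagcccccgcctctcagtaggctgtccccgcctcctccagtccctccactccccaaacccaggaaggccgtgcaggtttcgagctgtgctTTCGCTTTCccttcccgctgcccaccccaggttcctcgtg
Psmd4: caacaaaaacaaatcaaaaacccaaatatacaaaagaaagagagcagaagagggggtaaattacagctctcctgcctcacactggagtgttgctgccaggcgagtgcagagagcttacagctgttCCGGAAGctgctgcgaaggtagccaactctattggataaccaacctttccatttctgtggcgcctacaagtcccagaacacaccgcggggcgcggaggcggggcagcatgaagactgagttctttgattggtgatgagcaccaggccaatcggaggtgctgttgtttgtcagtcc

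On both strands, the ETS core was found in windows of 15 of the 41 genes (36.6%), against 9.93% of 27025 genes with such a window. It lay in Psma6, in the ATPase genes Psmc1, Psmc2 and Psmc6, in Psmc3ip, in 6 non-ATPase genes including Psmd4, in Psme3 and Psme4, and in Psmg1 and Psmg3. The GC box GGGCGG was found for 56.1% of the 41 genes and 38.2% of all, the ISRE core for 17.1% and 9.76%, and the GAS element for 7.32% and 9.55%. The CCAAT box stood at 34.1% and 41.1%, and the antioxidant element core at 14.6% and 14.0%. Sites of different motifs shared bases in 2 cases among 109 sites, in Psmd9 and Psme4. The 27025 genes were not limited to the 13602 genes tested here, so the shares were not compared among expressed genes. A match of letters describes the sequence only.

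None of the 48 genes passed the test between KO and WT Treg cells (0 of 48 called at an adjusted p under 0.05 by edgeR), where 6.45% of all 13602 tested genes did. DESeq2 called 0 of 48 (7.88% of all) and limma-voom 0 of 48 (6.4% of all). At an unadjusted p under 0.05 by edgeR, 3 of 48 stood out, against 20.4% of all tested genes; DESeq2 gave 1 of 48 (16.2% of all) and limma-voom 3 of 48 (20.2% of all). The lowest adjusted p was 0.102, for Psmd4. In each of the 6 fits that left out 1 library, the number called was again 0, and the lowest adjusted p was 0.0633, for Psme2 without KO 3. In bulk RNA, fewer cells of a type and less RNA per cell cannot be told apart.

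These were precise measurements of small differences. For 43 of 48 genes (89.6%), the 95% interval of the KO over WT fold lay wholly within 1.25-fold either way, against 46.7% of all tested genes. Among genes averaging 20 CPM or more, this held for 41 of 42 (97.6%), against 78.9% of 7168 genes. The exceptions were Psmb8, whose KO libraries were spread, and the low-count genes Psmg1, Psmg3, Psmg4 and Psmc3ip. The median SD between libraries of 1 genotype was 0.053 (log2) for the 42 genes and 0.073 for all tested genes averaging 20 CPM or more. These sets were not equal in level: the median was 99.7 CPM for the 42 genes and 66.9 CPM for the 7168 genes.

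**Figure D1:**
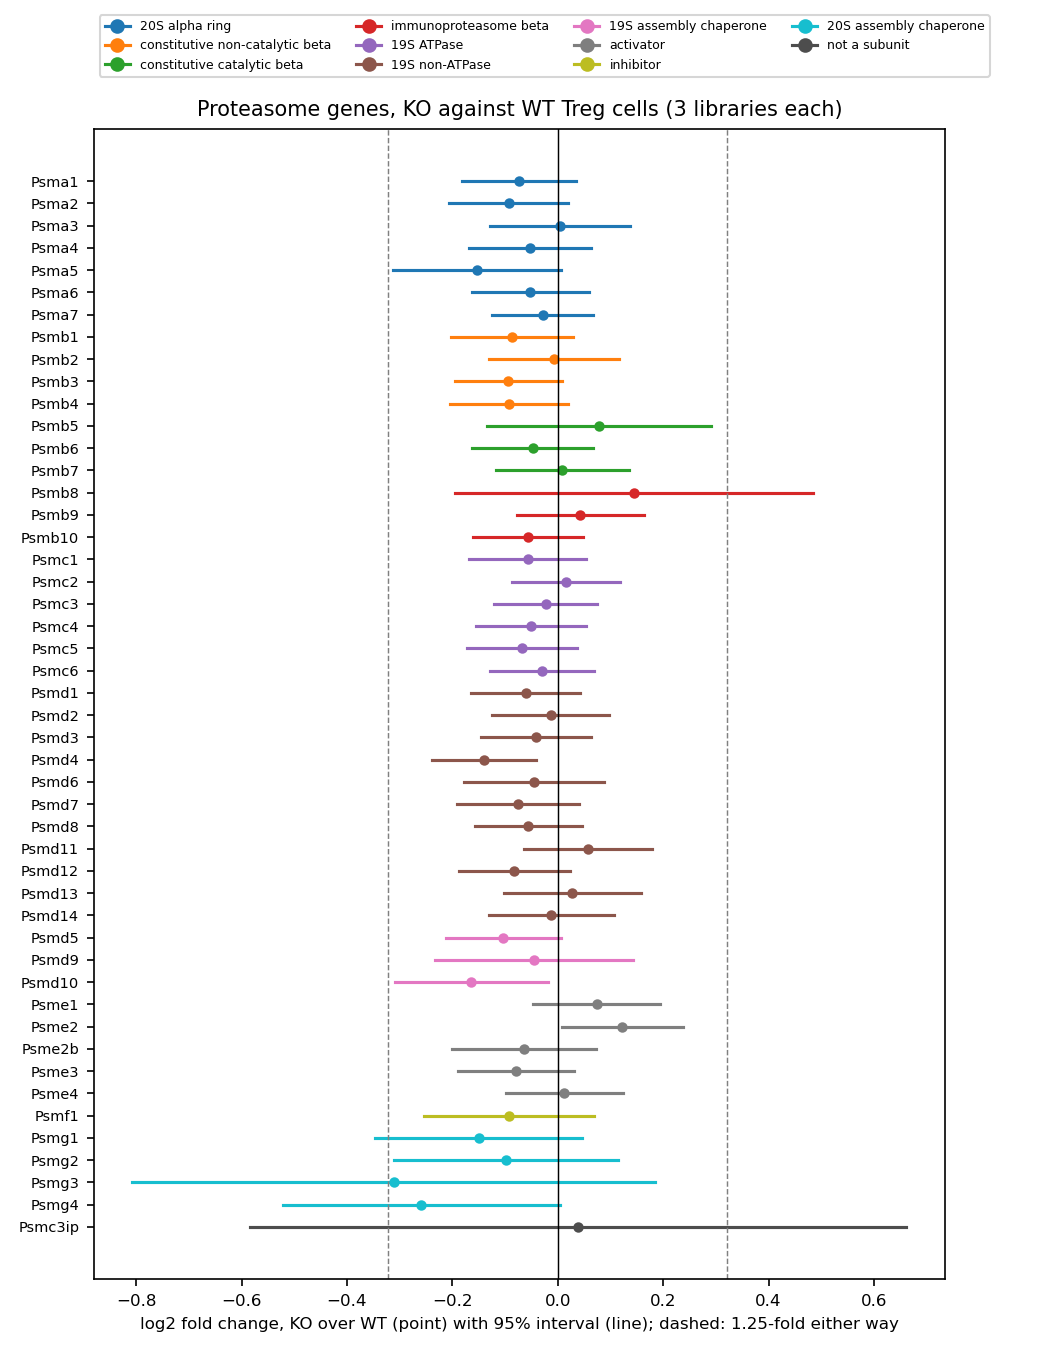
Log2 fold change of KO over WT (points) with 95% intervals (lines) for the 48 genes, coloured by role and grouped from the 20S core down to the assembly chaperones, with 3 libraries a genotype. The dashed lines mark 1.25-fold either way; 43 of 48 intervals lie between them, and the intervals of Psmb8, Psmg1, Psmg3, Psmg4 and Psmc3ip cross 1 or both.

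The differences leaned slightly one way without passing the test for any gene. The fold change was below 0 for 36 of 48 genes (75% against 48.9% of all tested genes). Among genes averaging 20 CPM or more, it was below 0 for 31 of 42 (73.8%), against 54.0% of all tested genes of that level. Over the 48 genes, the median log2 fold change was -0.05, against 0.00 for all tested genes. By library, the median deviation of the 48 genes from their own means (log2) was -0.01, -0.02 and -0.05 in KO 1 to 3, and 0.04, -0.01 and 0.05 in WT 1 to 3. WT 2 lay among the KO libraries, so the genotypes overlapped. WT 3 was the highest library for 16 genes and WT 1 for 14, and KO 3 was the lowest for 19.

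KO and WT libraries did not overlap for 8 of the 48 genes (16.7%, against 25.7% of all tested genes). Psmb3, Psmb4, Psmd4, Psmd12, Psmd5, Psmd10 and Psmg4 were lower in every KO library (7 of 48, against 13% of all tested genes), and Psme2 was higher in every KO library (1 of 48, against 12.6% of all). The share that was lower lies near that of all tested genes, and the share that was higher lies below it.

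**Figure D2:**
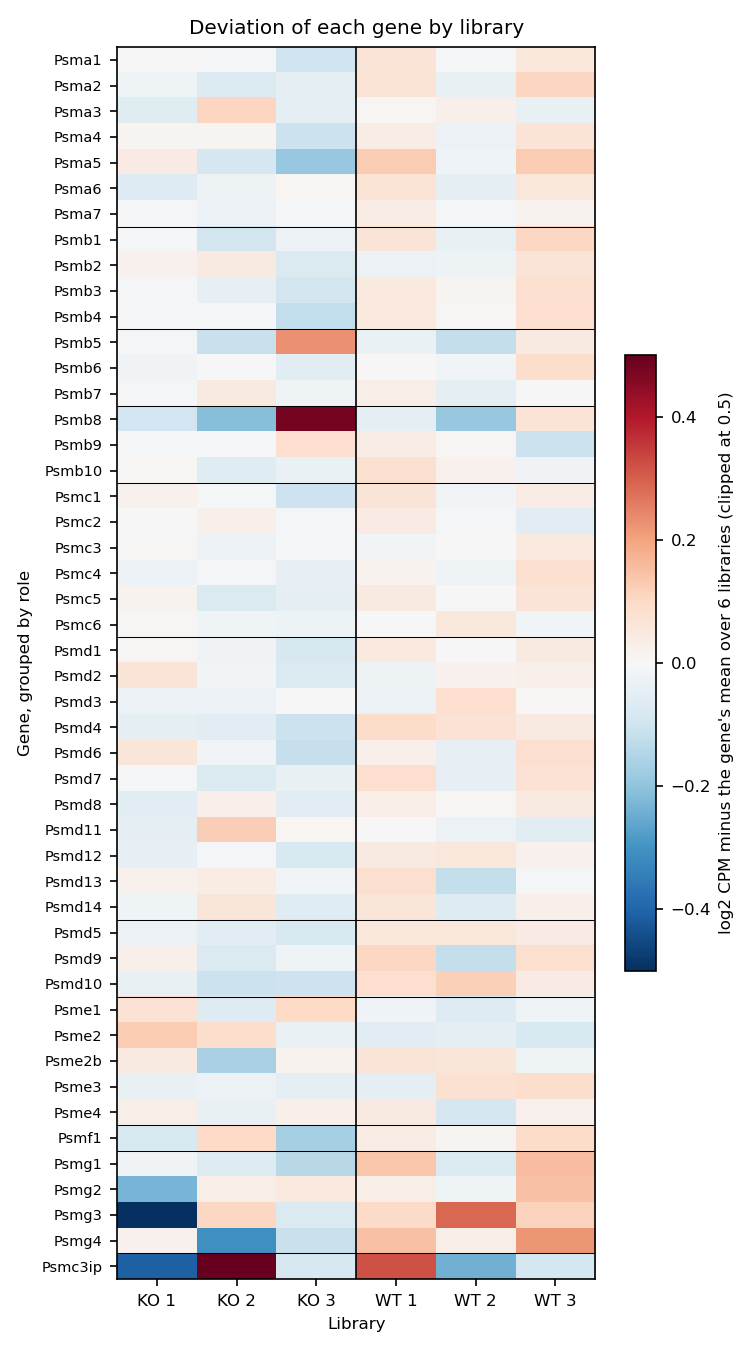
Deviation of each of the 48 genes (rows, grouped by role) in each library (columns, KO 1 to 3 left and WT 1 to 3 right) from its mean over 6 libraries, in log2 CPM, with the colour clipped at 0.5 either way. Most cells are pale; Psmb8 in KO 3 and the low-count genes Psmg3 and Psmc3ip hold the strongest colours.

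The alpha ring, which gates the barrel, held 7 genes, and none was called. Their log2 fold changes ran between -0.15 for Psma5 and 0.00 for Psma3, with 6 of 7 below 0. Psma5, the gene of the ring with the smallest p, had 58.3, 53.5 and 49.7 CPM in KO libraries, against 61.9, 55.9 and 61.8 CPM in WT libraries (log2 fold change -0.15, SE 0.07, adjusted p = 0.266 by edgeR). KO 1 lay above WT 2, so the genotypes overlapped. Psma7 was the most abundant alpha gene per length, at 136 ± 1.29 CPM per kilobase in KO and 139 ± 2.37 in WT (SD, n = 3 each), and its interval ran from 0.917-fold to 1.05-fold. Psma3 shares 665 identical bases with Gm13835, which had 4139 reads to 7510 for Psma3, so its reads may be split; with both summed its log2 fold change was -0.01 (adjusted p = 0.952).

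The non-catalytic beta subunits build the ring without cutting, and all 4 had fold changes below 0, between -0.09 and -0.01 (log2). Psmb3 had 105, 102 and 99.1 CPM in KO libraries, against 109, 106 and 111 CPM in WT libraries. All 3 KO libraries were lower than all WT libraries, by a log2 fold change of -0.09 (standard error 0.05, adjusted p = 0.288). Psmb4 had 139.9, 140.0 and 129 CPM in KO libraries, against 146, 142 and 149 CPM in WT libraries. The gap between the nearest libraries of the genotypes was small, and the adjusted p was 0.343 (log2 fold change -0.09, SE 0.05).

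The catalytic subunits of the constitutive barrel stayed close together between genotypes. Psmb5, the chymotrypsin-like subunit, had 27.1, 25.3 and 31.97 CPM in KO libraries, against 26.7, 25.1 and 28.2 CPM in WT libraries (log2 fold change 0.08, SE 0.09, adjusted p = 0.712). KO 3 was the highest library, at 1.13 times the next, WT 3, and without it the log2 fold change was -0.03. Psmb6, the caspase-like subunit, had 67.1, 68.0 and 65.3 CPM in KO and 67.8, 67.2 and 72.1 CPM in WT libraries (log2 fold change -0.05, SE 0.05, adjusted p = 0.669). Psmb7, the trypsin-like subunit, had 43.7, 45.3 and 43.3 CPM in KO and 45.0, 42.6 and 44.0 CPM in WT libraries (log2 fold change 0.01, SE 0.06, adjusted p = 0.956). For Psmb6 and Psmb7 the libraries of the genotypes were interleaved.

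The immunoproteasome subunits were well expressed in both genotypes, and none of the 3 was called. Psmb8, the inducible counterpart of Psmb5, had 111, 103 and 166 CPM in KO libraries, against 115, 104 and 125 CPM in WT libraries. KO 3 stood apart at 1.33 times the next highest library, WT 3, while KO 1 and KO 2 lay within or below the WT range. The log2 fold change was 0.14 (SE 0.15, 95% interval -0.20 to 0.48, adjusted p = 0.662), and without KO 3 it was -0.10 (adjusted p = 0.532). KO 3 also had the most Y-linked transcripts (450 CPM) and the lowest sums of B cell markers (8.49 CPM) and of macrophage and monocyte markers (15.6 CPM) among the 6 libraries. Its sum was also the lowest for erythroid markers (0.667 CPM). It was not the lowest for dendritic cell (2.84 CPM), CD8 T cell (13.3 CPM), NK cell (6.58 CPM) or granulocyte markers (0.133 CPM). With the Y-linked share as a covariate, the log2 fold change of Psmb8 was -0.02. Because KO 3 had the highest Y-linked share, the covariate and this single library cannot be told apart. The part of any of these values in the result was not tested. Of the 48 genes, KO 3 was at least 1.1 times the next highest library for 2, Psmb5 and Psmb8, and this held for 3.29% of all tested genes of at least 20 CPM.

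Psmb9, the counterpart of Psmb6, had 144, 144 and 153 CPM in KO libraries, against 149, 146 and 134 CPM in WT libraries (log2 fold change 0.04, SE 0.05, adjusted p = 0.720). The highest value was that of KO 3 and the lowest that of WT 3, and the other libraries lay between 144 and 149 CPM. Psmb10, the counterpart of Psmb7, had 113, 108 and 109.7 CPM in KO libraries, against 119, 114 and 111 CPM in WT libraries (log2 fold change -0.06, SE 0.05, adjusted p = 0.558). KO 1 lay above WT 3, so the genotypes overlapped. The 95% interval ran from 0.948-fold to 1.12-fold for Psmb9 and from 0.895-fold to 1.03-fold for Psmb10.

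**Figure D3:**
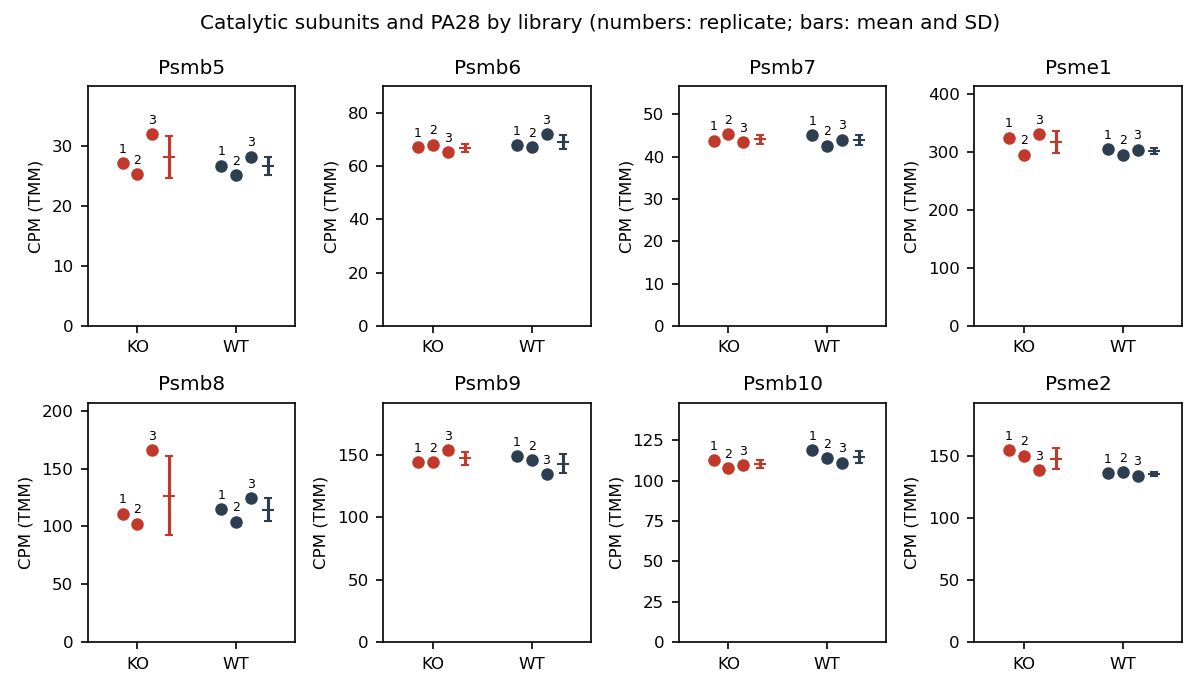
CPM values (TMM-normalized, linear axes from 0) of the constitutive catalytic subunits (Psmb5, Psmb6 and Psmb7, upper row), their immunoproteasome counterparts (Psmb8, Psmb9 and Psmb10, lower row) and both PA28 genes (right column), by library in KO (left) and WT (right), with mean and SD over 3 libraries. KO 3 stands above the other libraries for Psmb8 (166 CPM) and Psmb5 (31.97 CPM), and the KO and WT points of Psme2 do not overlap.

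Levels between genes were compared per length, as CPM per kilobase of the principal transcript. Psmb8 stood at 77.6 ± 20.99 in KO and 70.3 ± 6.27 in WT against 31.3 ± 3.85 in KO and 29.7 ± 1.70 in WT for Psmb5 (CPM per kilobase, SD, n = 3 each). Per library, the ratio of Psmb8 to Psmb5 was 2.27, 2.24 and 2.86 in KO and 2.37, 2.29 and 2.44 in WT. The ratio of Psmb9 to Psmb6 was 1.27, 1.25 and 1.39 in KO and 1.29, 1.28 and 1.101 in WT, and that of Psmb10 to Psmb7 was 2.28, 2.102 and 2.24 in KO and 2.33, 2.37 and 2.23 in WT. The genotypes overlapped in all 3 ratios, and with these lengths the immunoproteasome transcript was the more abundant of its pair in each library. Shared sequence may affect these ratios, which was not tested. Gm3375 (58 reads) matches Psmb5 at 98.9% over 796 bases, and Psmb7 shares 405 exon bases with Nek6 (578 reads) on the opposite strand. On the immunoproteasome side, Psmb8 shares 498 exon bases with Gm20496 (63 reads) and Psmb9 shares 212 with Tap1, both on the opposite strand. As a share of the pair, the immunoproteasome transcript made up 70.9% ± 2.79 in KO and 70.3% ± 0.669 in WT for Psmb8, 56.5% ± 1.39 in KO and 55.0% ± 2.24 in WT for Psmb9, and 68.8% ± 0.926 in KO and 69.8% ± 0.655 in WT for Psmb10 (SD, n = 3 each).

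The mean log2 ratio over the 3 pairs was 0.90, 0.85 and 1.05 in KO 1 to 3 and 0.95, 0.93 and 0.86 in WT 1 to 3. The KO mean exceeded the WT mean by 0.02, less than the SD between libraries (0.08), and without KO 3 the difference was -0.03. Without WT 3 the difference was -0.0031, and with the Y-linked covariate it was -0.00555. The sizes of the ratios depended on the length used. Divided by the union of all annotated exons, they averaged 1.16 for Psmb8 over Psmb5, 1.09 for Psmb9 over Psmb6 and 5.12 for Psmb10 over Psmb7. On that length the ratio of Psmb9 to Psmb6 was 1.0996, 1.08 and 1.203 in KO and 1.12, 1.11 and 0.954 in WT, so Psmb6 was the higher of this pair in WT 3, while the other pairs stayed above 1 in all 6 libraries. A length is the same for both genotypes, so the difference between them does not change. The 3 immunoproteasome genes had a median log2 fold change of 0.04 and the other 44 genes of the machinery one of -0.05; without KO 3 the medians were -0.05 and -0.04, and without WT 3 they were 0.00 and -0.05.

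Per kilobase of the principal transcript, the PA28 genes had the highest mean levels, led by Psme1 (with union exon lengths Psme2 stood at rank 4). Psme1 had 326, 296 and 332 CPM in KO libraries, against 305, 296 and 305 CPM in WT libraries (log2 fold change 0.07, SE 0.05, adjusted p = 0.499), with KO 2 within the WT range. Psme2 had 155, 151 and 139 CPM in KO libraries, against 136, 137 and 134 CPM in WT libraries. All KO libraries were higher than all WT libraries, by a log2 fold change of 0.12 (SE 0.05, 95% interval 1.005-fold to 1.18-fold, unadjusted p = 0.0396, adjusted p = 0.216 by edgeR).

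Psme2 is uncertain, because Psme2b, a single-exon gene on chromosome 11, matches it at 99.4% over 794 bases and reads may be split between them. Psme2b had 103, 88.9 and 101 CPM in KO libraries, against 104, 104 and 98.0 CPM in WT libraries (log2 fold change -0.06, SE 0.06, adjusted p = 0.619). Its KO and WT libraries overlapped. With the counts of both genes summed, the mean was 246 ± 10.3 CPM in KO and 238 ± 4.79 CPM in WT (SD, n = 3 each), and the log2 fold change was 0.05 (SE 0.05, adjusted p = 0.666). The 5 genes that interferon-gamma is known to induce (Psmb8, Psmb9, Psmb10, Psme1 and Psme2) had a median log2 fold change of 0.07, 4 of 5 above 0, and none was called; without KO 3 the median was 0.01, with 3 of 5 above 0.

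The other activators and the inhibitor were likewise not called. Psme3, the nuclear activator PA28 gamma, had 177, 178 and 176 CPM in KO libraries, against 176, 192 and 193 CPM in WT libraries (log2 fold change -0.08, SE 0.05, adjusted p = 0.423). WT 1 lay at the level of the KO libraries. Psme4, the large activator PA200, had 102, 97.1 and 101 CPM in KO and 103, 94.0 and 101 CPM in WT libraries (log2 fold change 0.01, SE 0.05, adjusted p = 0.922). Psmf1, the inhibitor PI31, had 48.9, 55.3 and 45.9 CPM in KO and 52.9, 52.1 and 55.0 CPM in WT libraries (log2 fold change -0.09, SE 0.07, adjusted p = 0.535), with the highest and the lowest value both in KO.

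The 6 ATPases of the 19S particle unfold substrates, and none was called. Their log2 fold changes lay between -0.07 for Psmc5 and 0.01 for Psmc2, and the 95% intervals of all 6 lay between -0.17 and 0.12. Psmc5 (chr11:106256154-106263120, + strand) is the nearest gene of the set to the targeted locus: its end lies 58 bases from the end of Smarcd2, which is transcribed towards it from the - strand. Psmc5 had 101, 94.9 and 96.6 CPM in KO libraries, against 103, 99.6 and 104 CPM in WT libraries, with KO 1 within the WT range. Its log2 fold change was -0.07 (SE 0.05, adjusted p = 0.466), and the interval ran from 0.887-fold to 1.03-fold. In all, 10 of the 48 genes lie on chromosome 11.

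Among the 11 non-ATPase subunits, which form the base and the lid of the 19S particle, 9 had fold changes below 0, and none was called. Psmd4 (chr3:95032694-95042614, - strand), the ubiquitin receptor Rpn10, had 136, 135 and 130.5 CPM in KO libraries, against 149.7, 148 and 145 CPM in WT libraries. Every KO library was below every WT library, and the gap between them exceeded the spread within either genotype. By edgeR, the log2 fold change was -0.14 (SE 0.04, unadjusted p = 0.0103, adjusted p = 0.102), and leaving out single libraries gave -0.15 to -0.12 with adjusted p between 0.129 and 0.263. Psmd12, a lid subunit, had 71.9, 73.7 and 70.2 CPM in KO libraries, against 76.3, 76.9 and 75.2 CPM in WT libraries (log2 fold change -0.08, SE 0.05, adjusted p = 0.372). Again the KO libraries were all lower, by less than for Psmd4. Psmd2, the scaffold subunit Rpn1 and the gene of this group with the most counts, had 269.5, 256 and 246 CPM in KO and 253, 262 and 263 CPM in WT libraries (log2 fold change -0.01, SE 0.05, adjusted p = 0.916). At the other end, Psmd11, a lid subunit, had a log2 fold change of 0.06 (standard error 0.05, adjusted p = 0.623), and A730017L22Rik, a copy at 97.9% identity over 1501 bases, may take some of its reads.

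The assembly chaperones, which leave the finished particle, ranked 39 to 47 of the 48 genes by level per kilobase of the principal transcript, with Psme4 and Psmf1 among them. With union exon lengths Psmd10 stood at 34 and Psmg4 at 36, above core subunits such as Psma3 (37) and Psmb7 (40). The 19S chaperones Psmd5, Psmd9 and Psmd10 had fold changes below 0, with no call. Psmd10, the chaperone gankyrin and the only gene of the set on chromosome X, had 27.8, 26.6 and 26.6 CPM in KO libraries, against 30.3, 31.0 and 29.4 CPM in WT libraries. The KO libraries were all lower, by a log2 fold change of -0.16 (SE 0.06, unadjusted p = 0.0303, adjusted p = 0.189 by edgeR). Psmd5 had 56.7, 55.8 and 54.9 CPM in KO and 60.1, 60.1 and 59.5 CPM in WT libraries, also without overlap (log2 fold change -0.10, SE 0.05, adjusted p = 0.275). Psmd9 overlapped, with a log2 fold change of -0.05 (adjusted p = 0.823).

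The 20S chaperones Psmg1 to Psmg4 all had fold changes below 0, between -0.31 and -0.10 (log2), with wide intervals. Psmg4 had 9.85, 7.84 and 8.98 CPM in KO libraries, against 10.7, 9.89 and 11.3 CPM in WT libraries. KO 1 lay just below WT 2, and the other KO libraries were lower; the log2 fold change was -0.26 (SE 0.12, 95% interval -0.52 to 0.00, adjusted p = 0.255). Psmg3 had 1.71, 2.65 and 2.34 CPM in KO and 2.63, 3.01 and 2.67 CPM in WT libraries (log2 fold change -0.31, SE 0.22, adjusted p = 0.489). KO 2 reached the WT range, and the low counts leave an interval from 0.572-fold to 1.14-fold. Psmc3ip, the gene that is not a subunit, had 1.66, 3.10 and 2.08 CPM in KO and 2.74, 1.86 and 2.07 CPM in WT libraries (log2 fold change 0.04, SE 0.28, adjusted p = 0.959), and its annotated transcript shares 385 bases with the more abundant Mlx.

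**Figure D4:**
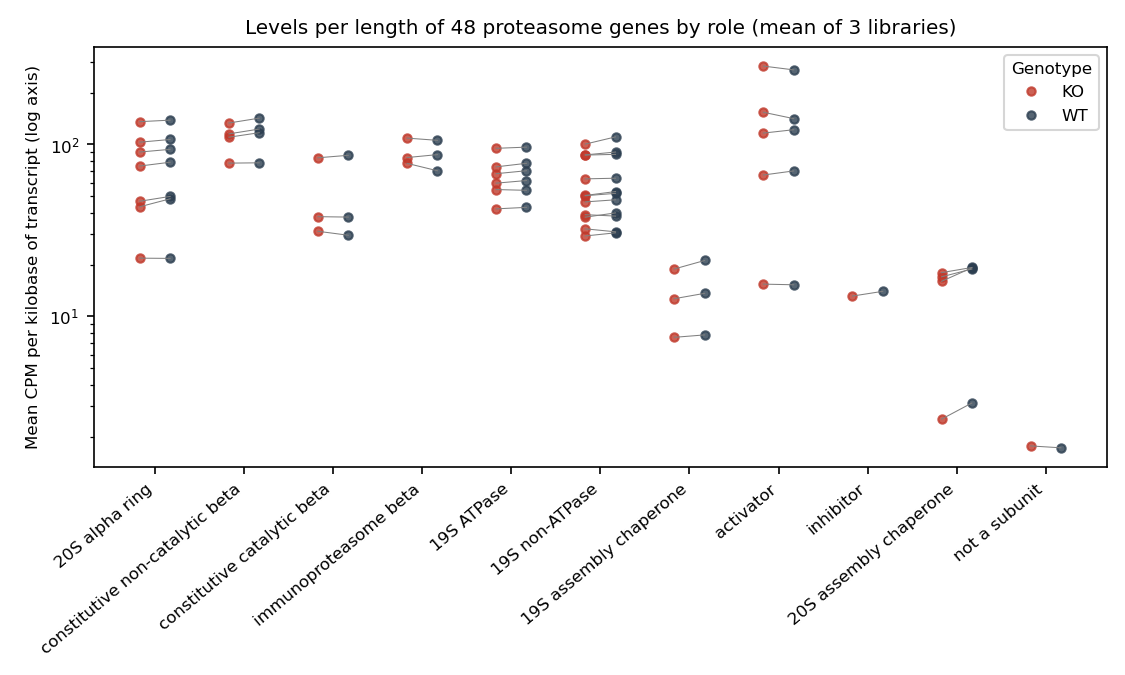
Mean level of each of the 48 genes in CPM per kilobase of the principal transcript (log axis) by role, KO (left point) joined to WT (right point), each a mean of 3 libraries. Psme1 is highest (286 in KO and 272 in WT), Psmb9, Psmb10 and Psmb8 (107, 85.6 and 74.0 over all libraries) lie within the range of the constitutive beta genes, and the assembly chaperones lie below the core subunits.

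The order of levels per kilobase of the principal transcript was led by Psme1 (279 CPM per kilobase over all libraries), Psme2 (148), Psmb3 (138) and Psma7 (137), and the last pair did not differ beyond their spread. Psmb9 ranked 8 of 48 (107), Psmb10 15 (85.6) and Psmb8 20 (74.0). Their constitutive counterparts ranked 16 (Psmb6, 85.1), 34 (Psmb7, 37.9) and 36 (Psmb5, 30.5), and Psmb10 and Psmb6 did not differ beyond their spread. The median was 64.8 CPM per kilobase for the 19S ATPases, 51.2 for the 19S non-ATPase subunits and 13.2 for the 19S chaperones. With union exon lengths Psme1 stayed at rank 1, whereas Psme2 stood at 4, Psmb3 at 14, Psma7 at 19, Psmb10 at 7, Psmb9 at 21 and Psmb8 at 25, with Psmb6 at 24, Psmb5 at 28 and Psmb7 at 40.

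The positions of several genes bear on how their reads are counted. Psmb8 (chr17:34197721-34201454, + strand) and Psmb9 (chr17:34181988-34187764, - strand) lie on chromosome 17 on both sides of Tap1, which encodes a subunit of the peptide transporter that feeds MHC class I. Psmb9 overlaps Tap1 on the opposite strand over 212 exon bases, and Tap1 had 59732 reads to 17600 for Psmb9. Whether the counting used strand is unknown here, and without strand such reads cannot be told apart. Tap1 had 489, 494 and 477 CPM in KO and 509.5, 523 and 468 CPM in WT libraries (log2 fold change -0.04, adjusted p = 0.743). Near-identical copies or overlapping transcripts (at least 95% identity over 200 bases) were found for 16 of the 48 genes, and for 9 the match covered at least 50% of the transcript.

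Of 42 further genes listed around the proteasome, 41 were measured, and edgeR called 2 (1 higher and 1 lower in KO; 4.88%, near the 6.45% of all tested genes). limma-voom also called 2, and DESeq2 called 3 (2 higher and 1 lower; 7.32%, near its 7.88% of all). Without the filter on low counts edgeR called 4 of 41 (9.76%), with Irf1 and Nlrc5 added, where it called 1624 of all 24676 genes. At an unadjusted p under 0.05, edgeR gave 9 of 41 (21.95%, near the 20.4% of all). Among 15 other subunits, partners and shuttles, 0 were called by edgeR, limma-voom or DESeq2, and 1 had an unadjusted p under 0.05 by edgeR and by limma-voom (0 by DESeq2). This was Akirin2, which carries proteasomes into the nucleus, at 43.5, 51.8 and 47.0 CPM in KO libraries, against 50.8, 53.9 and 56.0 CPM in WT libraries (log2 fold change -0.18, SE 0.07, adjusted p = 0.212). KO 2 lay above WT 1. Among 6 genes of ubiquitin supply, 0 were called by any of these tools, and 1 had an unadjusted p under 0.05 by edgeR and by limma-voom (0 by DESeq2), Uba6, a ubiquitin-activating enzyme. Uba6 had 40.2, 35.1 and 35.6 CPM in KO libraries, against 31.8, 32.3 and 34.4 CPM in WT libraries (log2 fold change 0.17, SE 0.07, adjusted p = 0.223), with all KO libraries higher.

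In the list of the bounce-back factor Nfe2l1, which induces proteasome genes when the proteasome is blocked, and the enzymes that process it, 1 of 6 was called, by all 3 tools. This single gene is 16.7% of the list, against 6.45% (edgeR), 6.4% (limma-voom) and 7.88% (DESeq2) of all tested genes. Ngly1, the enzyme that removes sugar chains from Nfe2l1, fell in KO Treg cells: it had 61.2, 58.6 and 52.4 CPM in KO libraries, against 75.6, 69.9 and 73.9 CPM in WT libraries. The genotypes did not overlap, and the log2 fold change was -0.35 (SE 0.07, adjusted p = 0.0126 by edgeR). Without WT 1 the adjusted p was 0.0641. Nfe2l1 itself had 179, 174 and 180.1 CPM in KO and 165, 174 and 176 CPM in WT libraries (log2 fold change 0.05, adjusted p = 0.641).

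In the list of 14 genes of the interferon axis, edgeR and limma-voom each called 1 (7.14%, against 6.45% and 6.4% of all tested genes). DESeq2 called 2 (14.3%, against 7.88% of all). By each tool, 5 of 14 had an unadjusted p under 0.05 (35.7%). The share of all tested genes was 20.4% by edgeR, 20.2% by limma-voom and 16.2% by DESeq2. With the replicate block or the Y-linked covariate, edgeR gave 3 of 14 at that level (21.4%). Ifngr1, the ligand-binding chain of the interferon-gamma receptor, rose in KO Treg cells, with 476, 484 and 430.0 CPM in KO libraries, against 408, 390 and 377 CPM in WT libraries. All KO libraries were higher, by a log2 fold change of 0.24 (standard error 0.06, adjusted p = 0.0353 by edgeR). The call was lost in 5 of the 6 fits without 1 library, with adjusted p up to 0.136 (without WT 2), and it was kept without KO 3 (0.0116). Irf1, a factor that induces the immunoproteasome genes, was chosen after its values were seen: it had 309, 283 and 314 CPM in KO libraries, against 270.4, 270.6 and 257 CPM in WT libraries (log2 fold change 0.18, SE 0.05, adjusted p = 0.0790). Its genotypes did not overlap. It did not pass by edgeR or by limma-voom (adjusted p = 0.0746), and it passed by DESeq2 (adjusted p = 0.0354) and by edgeR without the filter on low counts; its adjusted p ran between 0.0354 and 0.139 over the alternatives with all libraries, and between 0.0339 (without KO 2) and 0.234 when 1 library was left out. Interferon-gamma itself (Ifng) was low, at 1.21, 0.814 and 1.33 CPM in KO and 0.767, 1.15 and 1.31 CPM in WT libraries.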

How the data were processed

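Gene counts of 6 libraries were analysed. Its authors deposited raw read counts per gene, as whole numbers that were not normalized. Per the submitters' processing notes, fastp 0.23.2, HISAT2 2.1.0, Picard and DESeq2 1.34.0 were used with mm10. The sources used here do not give their roles, the read counter or its strand setting. In the table, 27 date-like symbols were restored from their identifiers.

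Genes were filtered with filterByExpr (minimum count 10, minimum total 15), normalized by TMM and tested with edgeR 4.0.16 (quasi-likelihood F test, R 4.3.3) over 13602 genes, with Benjamini-Hochberg adjustment and calls at an adjusted p under 0.05. Intervals are 95% intervals, and SDs are over 3 libraries. CPM values are TMM-normalized, with some exceptions that are raw counts scaled to the size of the library. These are the values used by the rule of choice, those of cell type markers (Foxp3 included) and sex-linked transcripts, and the CPM allowed by a count of 0. Alternatives were DESeq2 1.42.0, limma-voom 3.58.1, other scalings and filters, a replicate block, a Y-linked covariate and leaving out each library. Summing near-identical copies and the union exon length were chosen after seeing the data. Steps were tested on simulated counts. Lengths and positions came from GENCODE M21 (same build), which held all 48 genes, and copies were found with blastn 2.17.0.

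The members and gene lists were chosen with earlier results of these data known. The genes named are the catalytic subunits, activators and inhibitor, called genes, the gene with the smallest p in each role group or list without a call, and those at the threshold of the rule; others (Psma3, Psma7, Psmb4, Psmd2, Psmd5, Psmd9, Psmd11, Psmd12, Psme2b, Tap1, Nfe2l1, Ifng, Irf1 and Nlrc5) were named after their values were seen. Of the listed genes, 1 is not analysed here. The labels do not say what the replicate numbers mean, and they were not used as pairs in the main test. Deviations of same-numbered libraries had r = -0.14, -0.05 and 0.15, and those of differently numbered libraries lay between -0.21 and 0.23. Correlations of so few libraries cannot exclude a pairing. Libraries of 1 genotype differed beyond sampling noise (chi-square per degree of freedom at least 5.03). With 3 libraries against 3, an exact permutation test cannot go below p = 0.1. A count of 0 allows up to 3 counts, or 0.133 to 0.165 CPM.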

Additional observations from a re-analysis of the deposited data

How the results depend on the processing

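The number of proteasome genes called was 0 under every alternative run, the replicate block included, while the number over all genes was 877, or 738 with the replicate block, 1624 without the filter and 344 to 848 when single libraries were left out. The mean log2 ratio of the immunoproteasome pairs and the median log2 fold change of the set moved by less than their spread under every alternative run for them; the pair difference was not run with the other filters. The pair difference was 0.02, and -0.03 without KO 3. It was also below 0 without WT 3 (-0.0031) and with the Y-linked covariate (-0.00555). Among single genes, signs turned only for genes that were not called. The log2 fold change of Psmb5 was -0.000997 and that of Psmb8 -0.0235 with the Y-linked share as a covariate, that of Psmb7 was -6.9e-05 without the filter, and that of Psma3 was -0.00791 with Gm13835 summed. Leaving out single libraries gave -0.026 to 0.146 for Psmb5, -0.0169 to 0.0222 for Psmb7, -0.100 to 0.272 for Psmb8, -4.76e-05 to 0.0668 for Psmb9, -0.0285 to 0.0321 for Psme4 and -0.244 to 0.219 for Psmc3ip. It also gave -0.0540 to 0.0342 for Psma3, -0.0341 to 0.0282 for Psmb2, -0.0109 to 0.0339 for Psmc2 and -0.0495 to 0.0179 for Psmd2. For Psmd13 it gave -0.0271 to 0.0709, and for Psmd14 -0.0516 to 0.0145. With the Y-linked covariate, Psmb2 (0.00518) and Psmd14 (0.0181) turned as well. The cause was not tested. The called gene Ngly1 lost its call without WT 1 and Ifngr1 when any library other than KO 3 was left out. Whether the numbers pair the libraries is not stated in the labels, and the block changed no call of a gene named. Depth limits Psmg3 and Psmc3ip, which had 303 and 271 reads over all libraries.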
